A study of Mus musculus with 12 samples.

Results

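The 10 genes described here encode the inhibitors of cyclin-dependent kinases (CDKs) and the retinoblastoma (RB) family of pocket proteins: Cdkn1a, Cdkn1b, Cdkn1c, Cdkn2a, Cdkn2b, Cdkn2c, Cdkn2d, Rb1, Rbl1 and Rbl2. They were chosen by name, and all 10 were found among the 18193 genes that the array annotation names. Together they were read by 17 probe sets, and for each gene the probe set with the greatest log2 intensity, averaged over the 12 arrays, stands for it (the main probe set). All 10 passed the filter on low values that left 12797 genes for testing.

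RNA was measured on Affymetrix Mouse430 2.0 arrays in a mouse model of disease driven by the ZMYM2-FGFR1 fusion kinase, with 12 samples in 5 groups. DP thymocytes were Thy1+CD4+CD8+ cells sorted from normal Balb/c thymus (n = 3, with 3 mice pooled in each). T lymphomas came from ZMYM2-FGFR1 mice of the third serial transplant (n = 4). Of these tumours, lymphomas 1 to 3 were unsorted, with above 90% of their cells GFP+Thy1+CD4+CD8+, and lymphoma 4 was sorted for such cells. HSC were normal lineage-negative, Sca-1 and c-kit positive bone marrow cells, sorted from female Balb/c mice (n = 2, with 5 mice pooled in each). LSC (leukaemia stem cells) carried the same surface markers plus GFP and were sorted from marrow or spleen of 2 to 3 ZMYM2-FGFR1 mice (n = 2). ZNF112 is described in the labels only as a cell line (n = 1). The labels give no treatment and no age for any group, and a strain for the normal mice alone. They call the replicates biological.

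CDK inhibitors brake the cell cycle at the step from G1 into S phase. The CIP/KIP proteins p21 (Cdkn1a), p27 (Cdkn1b) and p57 (Cdkn1c) bind assembled cyclin-CDK complexes, whereas the INK4 proteins p16 (Cdkn2a), p15 (Cdkn2b), p18 (Cdkn2c) and p19 (Cdkn2d) bind CDK4 and CDK6 and keep them from D-type cyclins. Both classes keep the pocket proteins pRB (Rb1), p107 (Rbl1) and p130 (Rbl2) in their unphosphorylated form, which holds E2F transcription factors in check. Cdkn2a also encodes ARF, an unrelated protein that stabilises p53 through MDM2. In thymocytes and haematopoietic stem cells these genes are known for setting the balance between rest and division.

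In T lymphoma, Cdkn1a and Cdkn2b rose and Rb1 fell relative to DP thymocytes, so that 3 of the 10 genes passed the test (limma, Benjamini-Hochberg adjusted p under 0.05), against 6.55% of all genes tested (3.37% higher and 3.18% lower). In LSC, Cdkn1a, Cdkn1b, Cdkn2b and Rb1 rose and Cdkn1c fell relative to HSC, so that 5 of the 10 passed, against 10.3% of all genes tested (4.05% higher and 6.21% lower). The LSC calls rest on a spread shared by all 12 arrays: with only the 4 HSC and LSC arrays in the fit, 0 genes passed in limma (1535 had an unadjusted p under 0.05, 5 members among them). With arrays weighted by quality, Cdkn2b alone of the members passed in LSC. The median log2 difference of the 10 genes was -0.43 in T lymphoma and 1.34 in LSC, beside -0.02 and -0.03 over all genes tested. The change in LSC was larger than the change in T lymphoma for Cdkn1b and Rb1, which passed a test of the difference between these comparisons, against 8.88% of all genes tested (3.59% in this direction). No member passed when the cell line was set against the lymphomas (limma, adjusted p; 1.16% of all genes were called, and 0 members had an unadjusted p under 0.05, as 12.1% of all genes did). No member passed when the sorted lymphoma was set against the unsorted ones (limma, adjusted p; 0.656% of all genes were called, and 1 member, Cdkn1b, had an unadjusted p under 0.05, as 9.99% of all genes did).

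**Figure D1:**
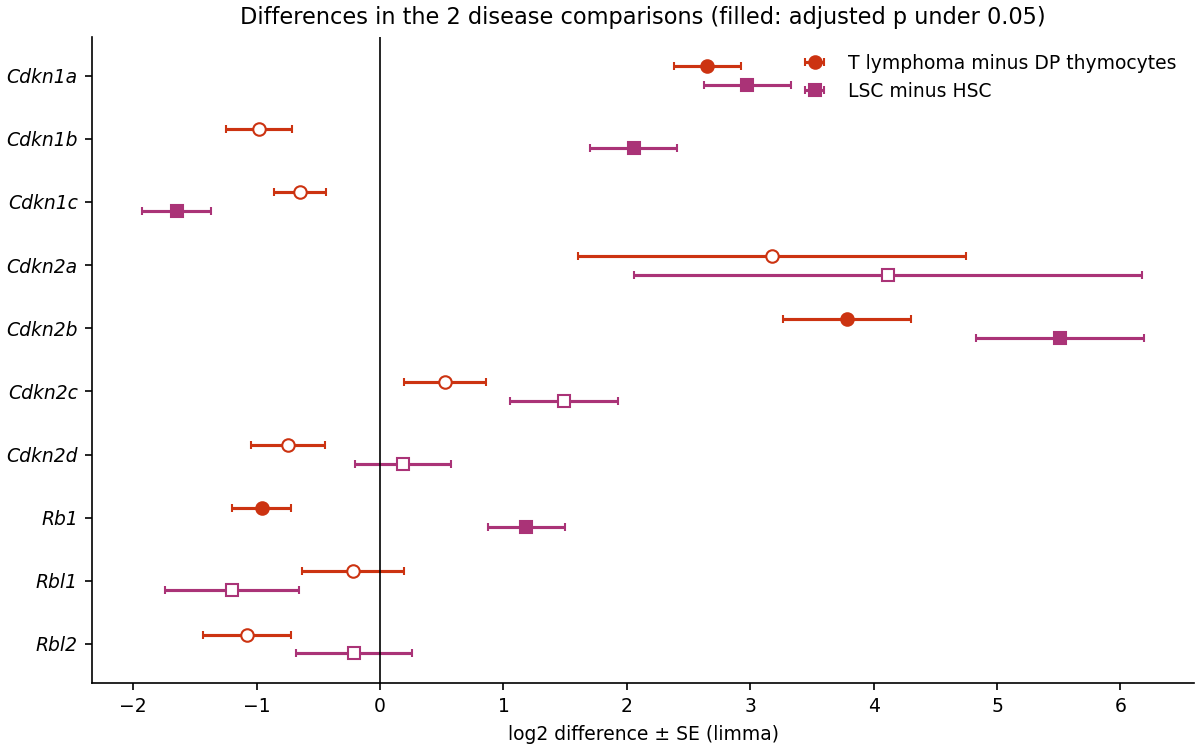
Log2 difference ± SE from limma (x axis) for each of the 10 genes (y axis) in T lymphoma minus DP thymocytes (circles, 4 against 3 arrays) and LSC minus HSC (squares, 2 against 2 arrays); filled symbols have an adjusted p under 0.05. Cdkn1a and Cdkn2b lie to the right of 0 in both comparisons, Rb1 lies on opposite sides of 0, and Cdkn2a has the widest error bars.

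The arrays of a group differed in quality and in cell content. The spread between arrays, as the root mean square SD over all genes, was smallest for DP thymocytes (0.153), intermediate for HSC (0.554) and the lymphomas (0.619), and widest for LSC (1.02). The 3'/5' signal ratio of actin rises as RNA degrades or is cut short in amplification. It ran from 2.18 to 2.23 for DP thymocytes and from 2.44 to 3.69 for the lymphomas. In sample order it was 5.79 and 3.91 for HSC and 13.6 and 9.82 for LSC. The summed intensity of 11 stroma and endothelium markers was 18984 to 42799 in the unsorted lymphomas, 918 in the sorted lymphoma, 1021 in the cell line, 962 to 1100 in DP thymocytes and 401 to 1325 in HSC and LSC. The sum over 10 macrophage markers was 25525 to 55401 in the unsorted lymphomas, 3546 in the sorted lymphoma, 1993 in the cell line, 1222 to 1375 in DP thymocytes, 30423 and 4805 in HSC, and 14236 and 3530 in LSC. The sum over 4 NK and cytotoxic markers was 1822 to 2120 in DP thymocytes, 19796 to 68672 in the lymphomas and 43572 in the cell line, and 767 and 2435 in HSC against 22029 and 29735 in LSC. Of this list Gzma, a granzyme, passed in both disease comparisons, and 3 other tested genes did not. B cell markers (6 genes) summed to 8853 in HSC 1, 1553 in HSC 2, 3624 in LSC 1 and 1222 in LSC 2. The LSC 1 sum came mostly from H2-Ab1 and Cd74, at log2 10.78 and 10.71. Cd79a and Cd79b were at 6.45 and 6.01 in LSC 1, against 9.57 and 10.32 in HSC 1. In LSC 1, Cd79b, Ms4a1 and Pax5 were below the filter level of 6.33. Erythroid markers (4 genes) summed to 7200 and 15392 in HSC and 1759 and 238 in LSC. Of the defining genes of each sort, the thymocyte list (9 measured genes) summed to between 104183 and 115438 in DP thymocytes and between 45743 and 61720 in the lymphomas. In LSC this list summed to 4239 on array 1 and 18238 on array 2, against 847 and 527 in HSC. The stem cell list (8 measured genes) summed to 8116 and 2457 in LSC against 9120 and 12858 in HSC. Of the 8 stem cell genes, Mecom, Hlf and Meis1 fell in LSC and 5 did not pass. Kit, a marker of the sort, was at log2 12.31 and 10.99 in LSC and 11.00 and 11.43 in HSC, whereas Hlf, a stem cell factor, was at 5.37 and 4.77 in LSC, below the filter level of 6.33, and at 10.66 and 11.10 in HSC. Cd34 was at 10.63 in LSC 1 and 5.10 in LSC 2. The part of these markers and of RNA quality in the members' values was not tested, except where values are given below. In RNA from bulk samples, fewer cells of a type and less RNA per cell cannot be told apart.

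Levels below are log2 intensities in sample order. T cell arrays (the lymphomas, the cell line and DP thymocytes; the T cell side) had medians of 99.5 to 109 intensity units and HSC and LSC arrays (the stem cell side) 44.3 to 46.1, so log2 levels were compared within a side and only percentiles within an array were set across sides. A probe set's level was never set against that of another gene.

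**Figure D2:**
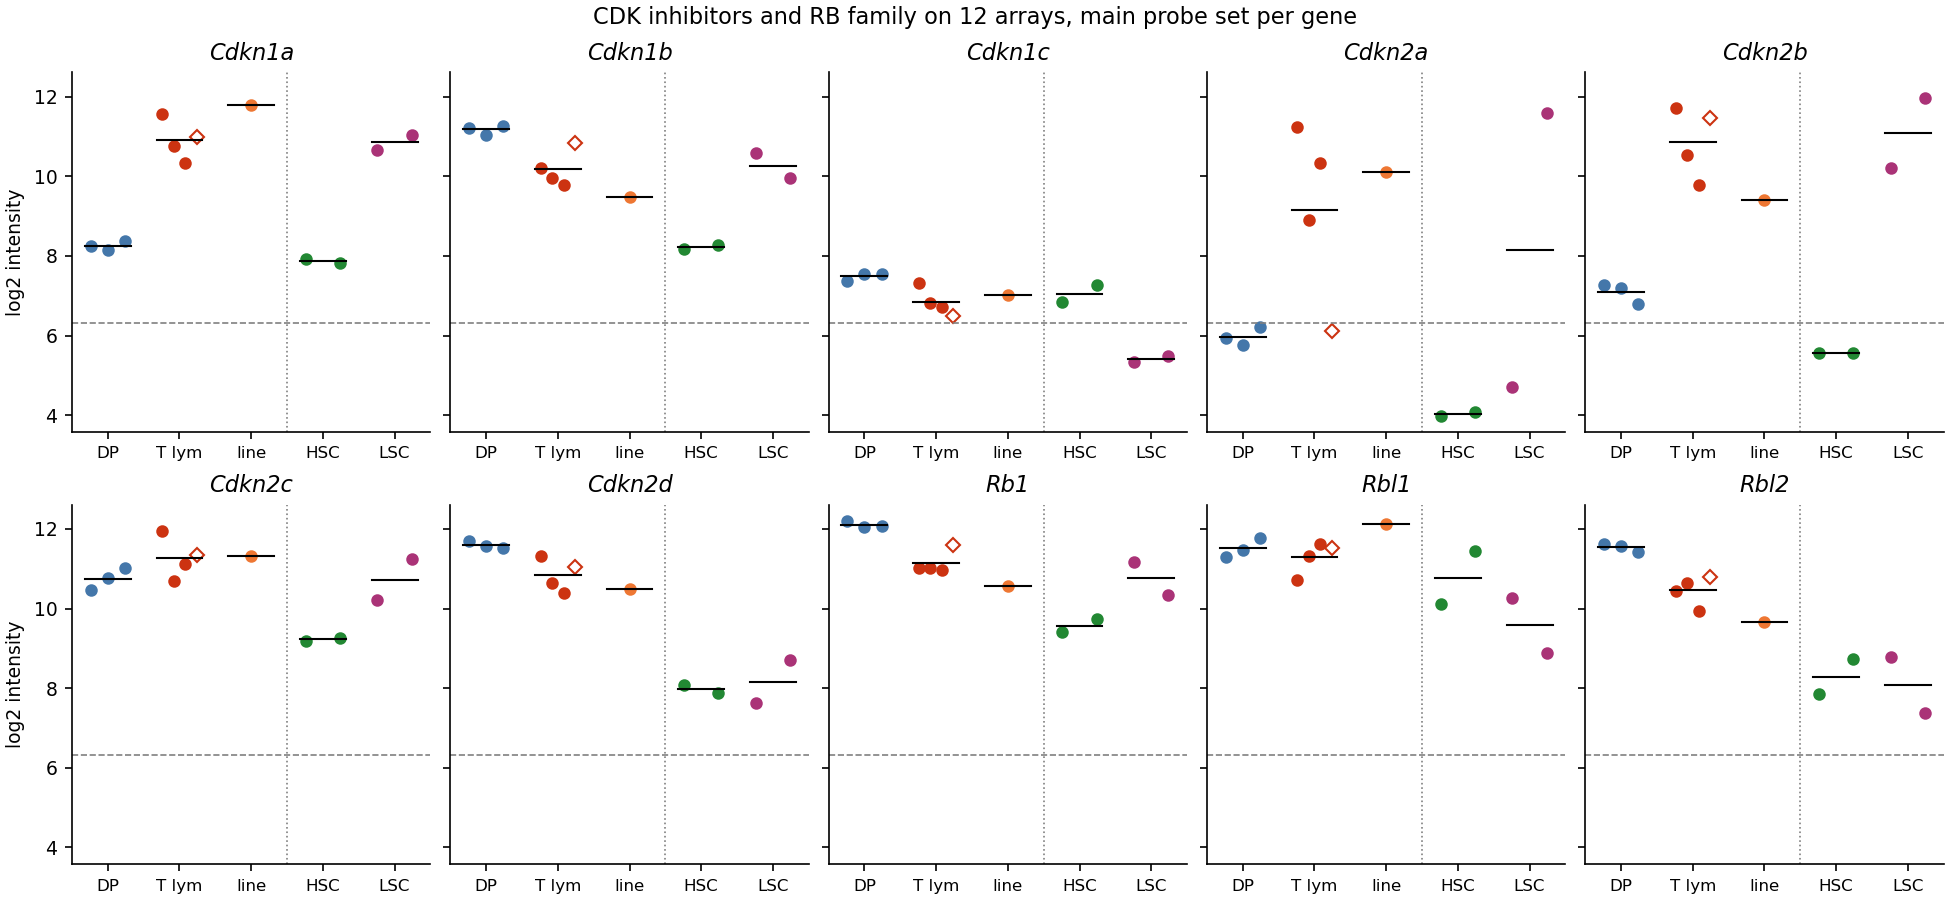
Log2 intensity (y axis) of the main probe set of each of the 10 genes in the 5 groups (x axis); points are arrays, the open diamond is the sorted lymphoma, short bars are group means, the dashed line is the filter level and the dotted line parts the T cell side from the stem cell side. Cdkn1a and Cdkn2b are higher in the lymphomas and the cell line than in DP thymocytes and higher in LSC than in HSC, and Cdkn2a is high on 5 arrays and near or below the filter level on the others.

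Cdkn1a (1424638_at) encodes p21, the inhibitor best known as a p53 target. Its log2 level was 8.24, 8.14 and 8.37 in DP thymocytes, 11.56, 10.76, 10.33 and 10.98 in the T lymphomas and 11.79 in the cell line. On the stem cell side HSC had 7.93 and 7.83, and LSC had 10.66 and 11.04. All lymphomas, the sorted one included, and the cell line lay above the DP thymocytes, and both LSC arrays lay above both HSC arrays. The NK and cytotoxic marker sums given above were separated in the same way. Of their genes, Gzma and Gzmb were so on both sides, Nkg7 on the T cell side only and Prf1 on neither. The part of these genes in the Cdkn1a level was not tested. The log2 difference was 2.65 ± 0.27 (SE) in T lymphoma (6.29-fold, adjusted p = 0.000522, n = 4 and 3, limma) and 2.98 ± 0.35 in LSC (7.87-fold, adjusted p = 0.00144, n = 2 and 2, limma). The difference between these changes was 0.32 ± 0.44 with a 95% interval of -0.67 to 1.32, which did not pass the test. The other Cdkn1a probe set, 1421679_a_at, also rose, by 1.86 ± 0.40 in T lymphoma (adjusted p = 0.0252, limma) and by 2.39 ± 0.52 in LSC (adjusted p = 0.0226, limma). With the sorted lymphoma as the only lymphoma, which had a stroma sum of 918, the Cdkn1a difference was 2.72 ± 0.43 (adjusted p = 0.0181, limma).

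Cdkn1b (1434045_at) encodes p27, which holds resting lymphocytes out of cycle. Its log2 level was 11.23, 11.03 and 11.28 in DP thymocytes, 10.20, 9.95, 9.78 and 10.85 in the T lymphomas and 9.48 in the cell line. HSC had 8.16 and 8.27, and LSC had 10.58 and 9.96. The lymphomas all lay below the DP thymocytes, with the sorted one nearest to them, whereas both LSC arrays lay above both HSC arrays. The log2 difference in T lymphoma was -0.98 ± 0.27 and did not pass (adjusted p = 0.0640, limma). Without the sorted lymphoma it was -1.20 and passed (adjusted p = 0.00922, limma), and with the sorted lymphoma alone it was -0.33 ± 0.30 (adjusted p = 1, limma). In LSC, Cdkn1b rose by 2.06 ± 0.35 (4.16-fold, adjusted p = 0.00766, limma).

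The Cdkn1b change in LSC exceeded that in T lymphoma by 3.04 ± 0.44 on the log2 scale (adjusted p = 0.00461, limma). This difference passed under all 21 alternative settings. The setting with only the arrays compared left out just the cell line and repeated the main fit, so its pass was fixed. A second Cdkn1b probe set, 1419497_at, did not follow in LSC: its log2 difference there was -0.18 ± 0.89 (adjusted p = 0.928, limma). It exceeded the filter level on 4 of 12 arrays, the DP thymocytes at 7.27, 7.31 and 7.31 and the sorted lymphoma at 8.24, and lay below it in HSC at 5.46 and 3.99 and in LSC at 3.97 and 5.12. On this probe set the difference between the changes was 0.77 ± 1.12 (adjusted p = 0.719, limma).

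Cdkn1c (1417649_at) encodes p57, an imprinted inhibitor known for keeping haematopoietic stem cells at rest. On the log2 scale it was at 6.84 and 7.27 in HSC and 5.34 and 5.47 in LSC, and both LSC values lay below the filter level. Cdkn1c fell by 1.65 on the log2 scale in LSC (SE 0.28, adjusted p = 0.00758, limma). On the T cell side it was 7.37, 7.55 and 7.55 in DP thymocytes, 7.32, 6.81, 6.73 and 6.50 in the T lymphomas and 7.01 in the cell line. All lymphomas lay below all DP thymocytes by a small margin. The difference was -0.65 ± 0.21 (adjusted p = 0.113, limma), and it passed only without lymphoma 1, at -0.81 (adjusted p = 0.0471, limma), among the arrays left out one at a time. The HSC to LSC fall was accompanied by lower sums of granulocyte markers (33203 and 32473 in HSC, 11629 and 1074 in LSC) and of stem cell markers as given above, and their part in it was not tested.

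The INK4 genes Cdkn2a and Cdkn2b are next to each other on chromosome 4, with transcription of both running along the minus strand. Cdkn2b comes first, then the upstream start of Cdkn2a, from which ARF is made, and then the downstream start, from which p16 is made. The Cdkn2b start lies 16413 bases before the first Cdkn2a start, and the Cdkn2a starts are 12427 bases apart, so that the stretch before the downstream start lies inside the Cdkn2a gene. The 250 bases before each start are shown because the levels of both genes spanned a wide range over the arrays, and the probe set does not tell the Cdkn2a starts apart. Sequences are from RefSeq, build GRCm38.p6, at chr4:89311033-89311282 for Cdkn2b, chr4:89294620-89294869 for Cdkn2a start 1 and chr4:89282193-89282442 for Cdkn2a start 2, all on the minus strand and written 5′ to 3′. Capitals mark matches to the searched motifs.
Cdkn2b: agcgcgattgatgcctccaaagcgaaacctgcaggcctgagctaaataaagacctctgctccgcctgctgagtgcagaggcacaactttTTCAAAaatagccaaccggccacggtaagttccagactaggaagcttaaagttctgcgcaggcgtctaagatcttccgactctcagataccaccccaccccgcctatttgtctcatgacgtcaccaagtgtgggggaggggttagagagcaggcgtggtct
Cdkn2a start 1: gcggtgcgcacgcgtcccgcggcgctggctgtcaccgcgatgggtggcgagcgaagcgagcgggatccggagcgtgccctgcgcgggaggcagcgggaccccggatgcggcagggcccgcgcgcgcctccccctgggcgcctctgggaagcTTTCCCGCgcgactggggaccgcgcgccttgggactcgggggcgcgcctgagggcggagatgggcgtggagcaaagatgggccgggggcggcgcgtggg
Cdkn2a start 2: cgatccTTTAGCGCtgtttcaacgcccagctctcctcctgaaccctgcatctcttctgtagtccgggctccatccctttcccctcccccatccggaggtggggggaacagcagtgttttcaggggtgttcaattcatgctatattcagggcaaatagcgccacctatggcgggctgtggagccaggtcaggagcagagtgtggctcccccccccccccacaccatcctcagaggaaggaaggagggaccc

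The motifs searched on both strands were E2F TTTNNCGC, CHR (the cell cycle homology region) TTTGAA, STAT TTCNNNGAA, FOXO GTAAACA and the E-box CACGTG. Windows ran from 250 bases before to 50 bases after a start, and 11 such windows were at hand for 8 of the 10 members; Cdkn1c and Rb1 were without an entry. Both Cdkn2a starts held an E2F match, TTTCCCGC at position -99 of start 1 and TTTAGCGC at -244 of start 2, counted from the start. Rbl1 held a pair of E2F matches at -18 (TTTCGCGC) and -8 (TTTGTCGC). Of 32851 promoter windows in the table, 5.17% held an E2F match. A CHR match stood on the opposite strand in Cdkn2b at -161 and in Rbl2 at -201, a motif that 17.9% of all windows held. An E-box, held by 7.15% of all windows, stood at 35 in the second Cdkn2c window. STAT and FOXO letters, held by 8.30% and 3.65% of all windows, were not in the members' windows. None of the matches within the 3 printed stretches overlapped another. The base composition differed, with 78.4% G and C before Cdkn2a start 1, 60% before start 2 and 53.6% before Cdkn2b.

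Cdkn2b (1449152_at) encodes p15, an inhibitor known as a target of TGF-beta signalling. Its log2 level was 7.26, 7.20 and 6.80 in DP thymocytes, 11.71, 10.52, 9.78 and 11.46 in the T lymphomas and 9.40 in the cell line. It was 5.57 on both HSC arrays and 10.21 and 11.96 in LSC. All lymphomas and the cell line lay above the DP thymocytes, and both LSC arrays above both HSC arrays, whose values were below the filter level. The NK and cytotoxic marker sums, with Gzma and Gzmb but not Prf1, were separated in the same way here too, and their part was not tested. Cdkn2b rose by 3.78 ± 0.52 in T lymphoma (13.8-fold, adjusted p = 0.00261, limma) and by 5.51 ± 0.68 on the log2 scale in LSC (adjusted p = 0.00166, limma), where no fold is given because the HSC values are below the filter level. The difference between these changes was 1.73 ± 0.85 (95% interval -0.20 to 3.65, adjusted p = 0.244, limma) and did not pass. In the sorted lymphoma alone the difference from DP thymocytes was 4.37 ± 0.78 (adjusted p = 0.0298, limma). Its level in the cell line was below all 4 lymphomas, with a difference of -1.47 ± 0.76 that did not pass (adjusted p = 0.498, limma).

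Cdkn2a (1450140_a_at) had the largest standard error of the members in each comparison. The log2 levels were 5.95, 5.75 and 6.22 in DP thymocytes, 11.23, 8.90 and 10.34 in the unsorted lymphomas, 6.12 in the sorted lymphoma and 10.10 in the cell line. It was 3.99 and 4.09 in HSC, 4.71 in LSC 1 and 11.60 in LSC 2. It exceeded the filter level on 5 arrays, namely the 3 unsorted lymphomas, the cell line and LSC 2, and was within the DP thymocyte range in the sorted lymphoma. The log2 difference was 3.17 ± 1.57 in T lymphoma (adjusted p = 0.270, limma) and 4.12 ± 2.06 in LSC (adjusted p = 0.247, limma), and neither passed. With LSC 2 as the only LSC array the latter was 7.56, and with LSC 1 as the only one it was 0.67. With the sorted lymphoma alone the difference from DP thymocytes was 0.14 ± 2.07, and the sorted minus unsorted difference was -4.04 ± 2.07 (adjusted p = 0.582, limma).

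The Cdkn2a level can be set beside the marker sums of each array. The unsorted lymphomas had both a high Cdkn2a level and stroma sums of 18984 to 42799, and the sorted lymphoma had neither. The cell line and LSC 2 had Cdkn2a at 10.10 and 11.60 with stroma sums of 1021 and 401. The part of stroma in the Cdkn2a level was not tested. Between the LSC arrays the thymocyte marker sum was 4239 where Cdkn2a was low and 18238 where it was high, and the part of this in the Cdkn2a value was not tested. On the arrays where Cdkn2a was below the filter level among the lymphomas and LSC, Cdkn2b, its neighbour, was above its own levels in the normal cells, at 11.46 in the sorted lymphoma and 10.21 in LSC 1.

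Mtap, which encodes methylthioadenosine phosphorylase and is the neighbour of Cdkn2a on its other side, was at log2 10.33, 10.44 and 10.76 in DP thymocytes and 12.60, 11.94, 12.42 and 11.65 in the T lymphomas. The cell line was at 12.50, HSC at 10.70 and 11.17, and LSC at 11.82 and 12.02. The lymphomas and the cell line lay above DP thymocytes, and LSC above HSC. Mtap rose by 1.64 ± 0.26 in T lymphoma (adjusted p = 0.00504, limma), and its difference in LSC was 0.99 ± 0.34 (adjusted p = 0.0979, limma). Mtap exceeded the filter level on every array.

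**Figure D3:**
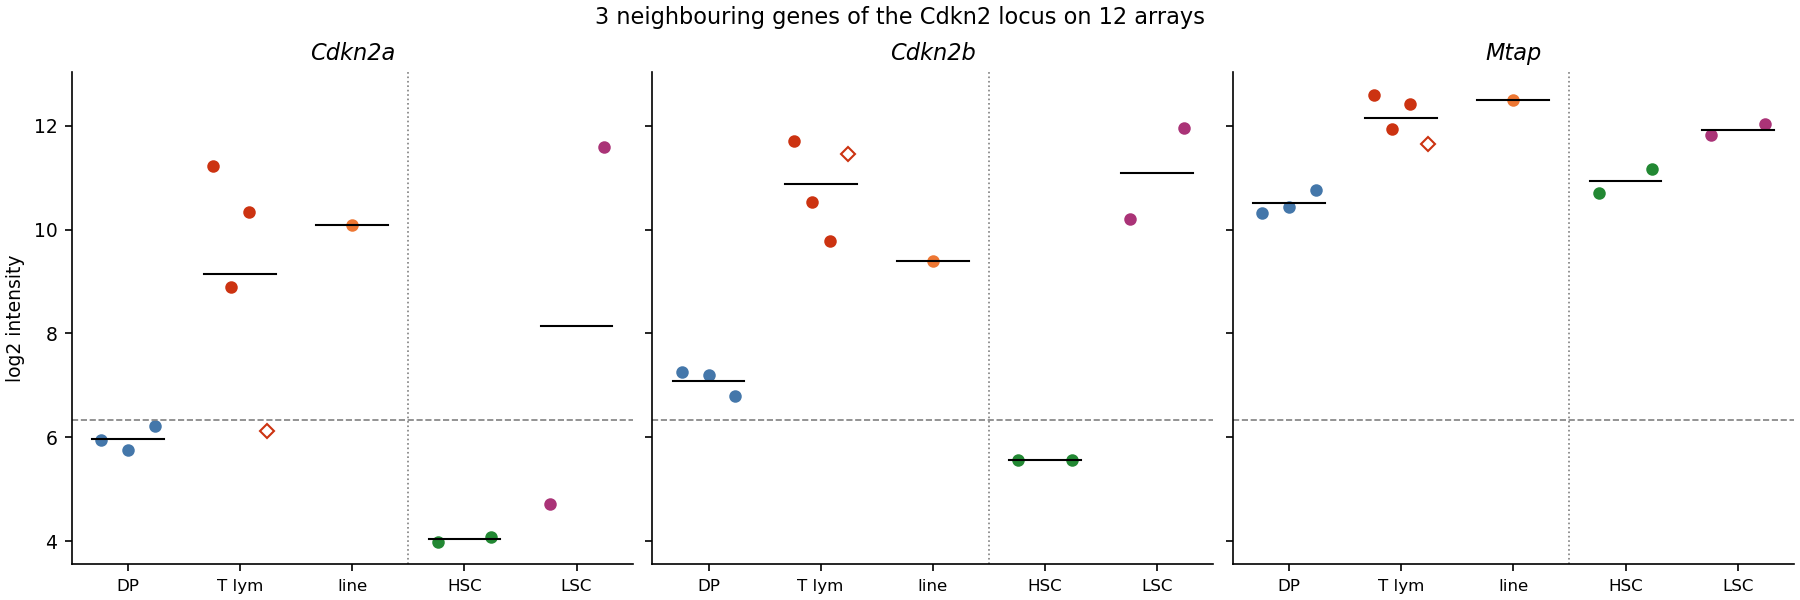
Log2 intensity (y axis) of Mtap, Cdkn2a and Cdkn2b, which neighbour each other on chromosome 4, in the 5 groups (x axis); points are arrays, the open diamond is the sorted lymphoma, bars are group means and the dashed line is the filter level. The sorted lymphoma lies within the DP thymocyte range for Cdkn2a and above it for Cdkn2b and Mtap.

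Cdkn2c (1416868_at) encodes p18, which is known for limiting the self-renewal of haematopoietic stem cells. Log2 levels of Cdkn2c were 10.46, 10.77 and 11.02 in DP thymocytes, 11.95, 10.69, 11.12 and 11.35 in the T lymphomas and 11.32 in the cell line. DP thymocytes and lymphomas overlapped, and the cell line lay above the DP thymocytes and within the range of the lymphomas. HSC had 9.19 and 9.27, and LSC had 10.21 and 11.23, without overlap. The log2 difference was 0.53 ± 0.33 in T lymphoma (adjusted p = 0.389, limma) and 1.49 ± 0.44 in LSC (adjusted p = 0.0611, limma). With LSC 2 as the only LSC array the latter was 2.00. With each array centred on its median it was 1.82 and passed (adjusted p = 0.0197, limma).

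Cdkn2d (1416253_at) encodes p19, the INK4 protein that shares its protein name with mouse ARF but is a different gene. It was at log2 11.71, 11.57 and 11.52 in DP thymocytes, 11.33, 10.65, 10.39 and 11.05 in the T lymphomas and 10.49 in the cell line. HSC had 8.09 and 7.87, and LSC had 7.62 and 8.71. The lymphomas lay below the DP thymocytes, while HSC lay within the range of LSC. Neither difference passed, at -0.75 ± 0.30 in T lymphoma (adjusted p = 0.178, limma) and 0.18 ± 0.39 in LSC (adjusted p = 0.812, limma). The latter was -0.36 without LSC 2.

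Rb1 (1417850_at) encodes pRB, the pocket protein that restrains the activating E2F factors. Log2 levels of Rb1 were 12.20, 12.06 and 12.07 in DP thymocytes, 11.03, 11.02, 10.96 and 11.60 in the T lymphomas and 10.58 in the cell line. HSC had 9.42 and 9.73, and LSC had 11.16 and 10.35. All lymphomas lay below the DP thymocytes, with the unsorted ones close together and the sorted one higher, and both LSC arrays lay above both HSC arrays. Rb1 fell by 0.96 on the log2 scale in T lymphoma (SE 0.24, adjusted p = 0.0465, limma) and rose by 1.19 ± 0.31 in LSC (2.27-fold, adjusted p = 0.0433, limma). The difference between these changes was 2.14 ± 0.39 (adjusted p = 0.0130, limma) and passed under all 21 alternative settings. The setting with only the arrays compared left out just the cell line and repeated the main fit, so its pass was fixed. On 1444400_at, the other Rb1 probe set, the difference was 1.35 ± 0.55 and did not pass (adjusted p = 0.167, limma).

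Each Rb1 change by itself was near the threshold. In T lymphoma the call was lost without any one of the 3 DP arrays or of lymphomas 1 to 3 (adjusted p from 0.102 to 0.185, limma), and kept without the sorted lymphoma (-1.11, adjusted p = 0.0165, limma). With the sorted lymphoma alone the difference was -0.51 ± 0.32 (adjusted p = 0.806, limma). In LSC the call was lost without HSC 1 (1.03, adjusted p = 0.152), HSC 2 (1.34, adjusted p = 0.0874) or LSC 1 (0.78, adjusted p = 0.114), all by limma. The other Rb1 probe set, 1444400_at, had the same signs and did not pass, at -0.60 ± 0.34 in T lymphoma and 0.76 ± 0.44 in LSC (adjusted p = 0.324 and 0.330, limma). It exceeded the filter level on 5 of 12 arrays. It lay below that level in the unsorted lymphomas, in HSC at 5.14 and 5.17 and in LSC at 6.20 and 5.62. On it, too, the sorted lymphoma at 7.32 stood above the unsorted ones at 5.94, 6.06 and 5.92.

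Rbl1 (1424156_at) encodes p107, the pocket protein that is itself an E2F target. It was at log2 11.31, 11.47 and 11.77 in DP thymocytes, 10.72, 11.32, 11.63 and 11.51 in the T lymphomas and 12.14 in the cell line. HSC had 10.11 and 11.45, and LSC had 10.27 and 8.89. DP thymocytes overlapped the lymphomas and HSC overlapped LSC, while the cell line lay above all other arrays of its side. The differences were -0.22 ± 0.41 in T lymphoma (adjusted p = 0.813, limma) and -1.20 ± 0.54 in LSC (adjusted p = 0.200, limma). With LSC 2 as the only LSC array the latter was -1.89. Both other Rbl1 probe sets above the filter level also had negative differences in both comparisons and did not pass, and the remaining probe set, 1454293_at, was below it on every array, with 5.15 as its highest value.

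Rbl2 (1425981_a_at) encodes p130, the pocket protein that prevails in resting cells. It was at log2 11.62, 11.57 and 11.42 in DP thymocytes, 10.45, 10.64, 9.95 and 10.78 in the T lymphomas and 9.66 in the cell line. HSC had 7.86 and 8.72, and LSC had 8.78 and 7.37. The lymphomas lay below the DP thymocytes without overlap, and the stem cell groups overlapped. The difference in T lymphoma was -1.08 ± 0.36 (adjusted p = 0.116, limma). It was -1.30 ± 0.41 on the other probe set, 1418146_a_at (adjusted p = 0.0967, limma), and neither passed. In LSC the difference was -0.21 ± 0.47 (adjusted p = 0.821, limma), and its sign turned, to 0.11, with each array centred on its median.

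**Figure D4:**
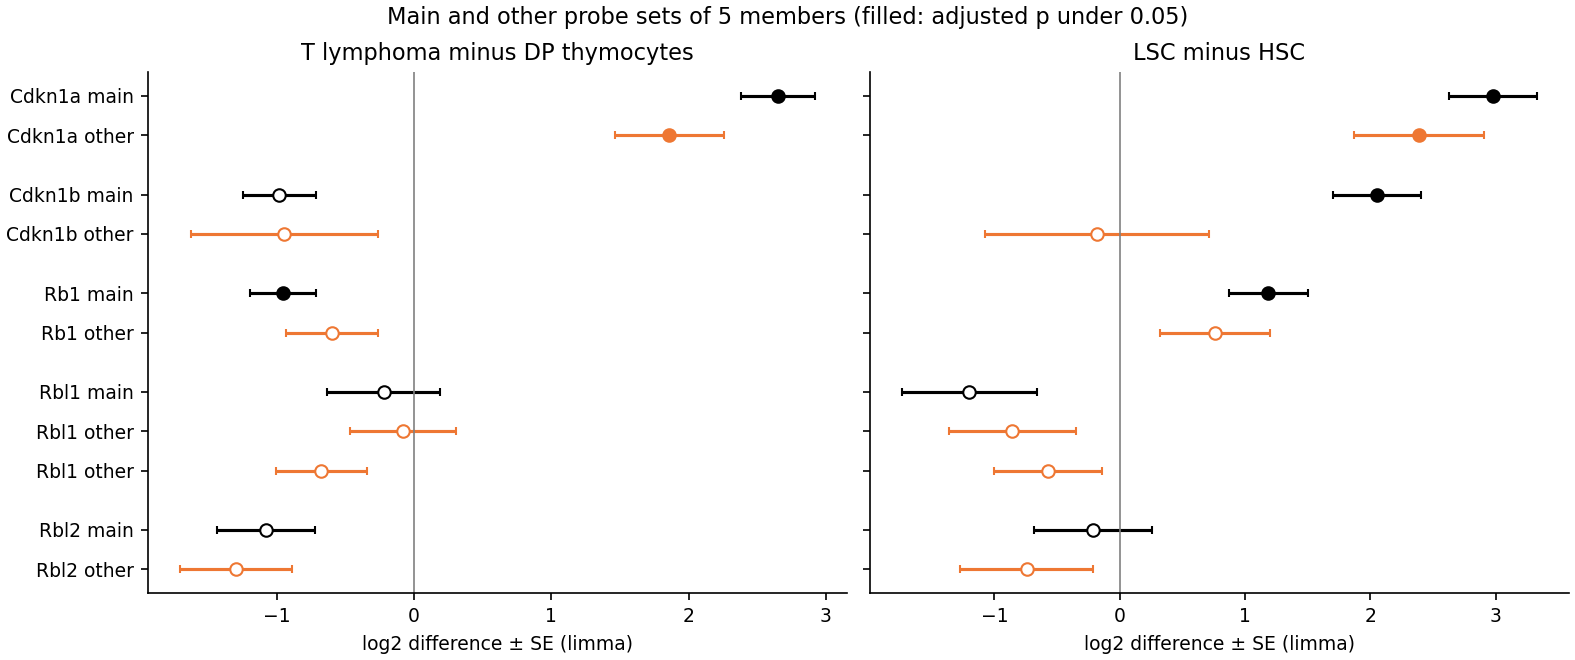
Log2 difference ± SE from limma (x axis) for the main probe set (black) and the other probe sets above the filter level (orange) of the 5 members with more than 1 such probe set; filled symbols have an adjusted p under 0.05. Both probe sets of Cdkn1a are filled and lie above 0 in both comparisons, and the second Cdkn1b probe set lies at -0.18 in LSC minus HSC where the main one lies at 2.06.

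By family, 1 of 3 CIP/KIP genes, 1 of 4 INK4 genes and 1 of 3 RB family genes passed in T lymphoma. In LSC the counts were 3 of 3 (Cdkn1a and Cdkn1b higher, Cdkn1c lower), 1 of 4 and 1 of 3. Over all genes tested the shares called were the 6.55% and 10.3% given above. The groups did not overlap for 7 of the 10 members in T lymphoma against DP thymocytes, where 34.4% of all genes tested were apart, and for 7 of the 10 in LSC against HSC, where 43.0% were.

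Across the 5 groups, the order of levels was read from the percentile of each probe set among the named probe sets of its array, and neighbours in the order were called separate where the ranges of their arrays did not overlap. Of the 40 pairs of neighbours, 21 overlapped. For Cdkn1a the mean percentile was 94.5 in LSC, 93.9 in the cell line, 88.5 in T lymphoma, 72.2 in HSC and 63.4 in DP thymocytes, and only LSC and the cell line overlapped. For Cdkn2b it was 94.7 in LSC, 87.9 in T lymphoma, 74.7 in the cell line, 51.6 in DP thymocytes and 46.0 in HSC, and only LSC and T lymphoma overlapped. The normal cells thus stood last for both genes.

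For Cdkn1b the order was LSC (91.6), DP thymocytes (90.3), T lymphoma (82.6), HSC (75.6) and the cell line (75.5), with overlap in the first and the last pair. For Rb1 it was DP thymocytes (95.5), LSC (94.0), T lymphoma (90.5), HSC (88.1) and the cell line (85.6), with overlap of LSC with both its neighbours. Cdkn1b and Rb1 thus shared the groups at the bottom of the order. For Cdkn1c the order was HSC (63.4), DP thymocytes (55.9), the cell line (50.4), T lymphoma (47.5) and LSC (44.1), with overlap of T lymphoma with both its neighbours.

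For Cdkn2a the order ran from the cell line (81.3) over T lymphoma (71.1), LSC (63.4) and DP thymocytes (34.7) to HSC (16.0), and only the last pair was separate. Cdkn2d and Rbl2 stood highest in DP thymocytes, at 92.9 and 92.6, and above T lymphoma, at 88.2 and 85.0, without overlap. Cdkn2d had its lowest mean in HSC (73.3) and Rbl2 in LSC (75.3), and HSC and LSC overlapped for both genes. Cdkn2c ranged from 85.3 in HSC to 93.7 in LSC and Rbl1 from 87.0 in LSC to 95.6 in the cell line. For Rbl1 all neighbours overlapped, and for Cdkn2c all but LSC and the cell line did.

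Members that took a like course were compared after the mean of each side was subtracted. Cdkn1b and Rb1 were together above their side's mean in DP thymocytes, LSC and the sorted lymphoma and together below it in HSC, the unsorted lymphomas and the cell line. Cdkn1a and Cdkn2b were together above it on every lymphoma and LSC array and in the cell line, and together below it in DP thymocytes and HSC. These positions restate the group differences and are given without a coefficient.

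**Figure D5:**
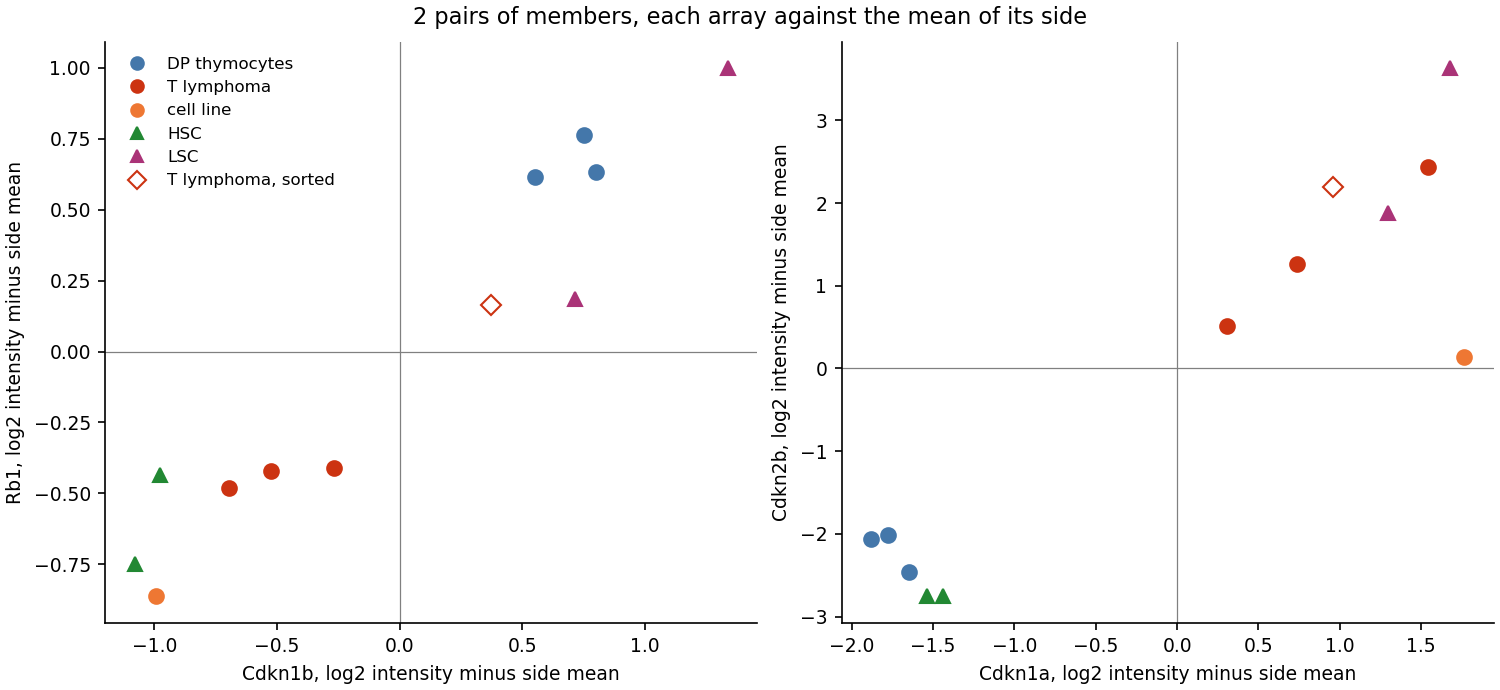
Log2 intensity minus the mean of the array's side for Cdkn1b (x) and Rb1 (y) on the left, and for Cdkn1a (x) and Cdkn2b (y) on the right; each point is 1 of the 12 arrays, coloured by group, with circles for the T cell side, triangles for the stem cell side and an open diamond for the sorted lymphoma. In the left panel the sorted lymphoma lies with the DP thymocytes and LSC in the upper right of the plot, and in the right panel all lymphomas, LSC and the cell line lie there.

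Among the 12797 genes tested, those with a course most like each member's were named by Pearson's r over the 12 arrays after the same subtraction. This is a description, since the arrays share groups, normalization and RNA quality. Cdkn1a was closest to Fkbp5 (0.986) and Irgm2 (0.985), and Cdkn2b to Map3k8 (0.979) and Socs3 (0.977). Rb1 was closest to Tmem87b (0.988) and Mindy2 (0.974), and Cdkn1b to Tmem87b (0.969) and Osbpl11 (0.964). Tmem87b thus led for both Rb1 and Cdkn1b. Cdkn1c was closest to Prss16 (0.969) and Adgra3 (0.964), Cdkn2a to Ptprn2 (0.942) and Insl6 (0.940), and Cdkn2c to Iqgap1 (0.945) and 9130015A21Rik (0.928). Cdkn2d was closest to Limd2 (0.941) and Spata2l (0.932), Rbl1 to Katnal1 (0.956) and Nadk2 (0.952), and Rbl2 to Rpgr (0.957) and Mdm4 (0.941).

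The cyclins and kinases on which these inhibitors act moved in both directions in T lymphoma. Of 10 G1 cyclins and kinases, Ccnd2 rose by 3.35 ± 0.84 (adjusted p = 0.0466, limma) and Cdk6, a kinase bound by INK4 proteins, by 2.19 ± 0.33 (adjusted p = 0.00391, limma). Ccnd3, the D-type cyclin of developing thymocytes, fell by 2.51 (SE 0.28, adjusted p = 0.000842, limma). Cdk6 was at 11.10, 11.56 and 11.43 in DP thymocytes and 13.50, 13.36, 13.54 and 13.81 in the lymphomas, the sorted one highest, while Ccnd2 was at 6.37, 6.91 and 6.78 in DP thymocytes, 12.19, 9.79 and 10.52 in the unsorted lymphomas and 7.66 in the sorted one. In LSC, 0 of the 10 rose and 4 fell: Ccna2 by 2.70, Ccne1 by 1.95, Cdc25a by 1.80 and Cdk4, the other kinase bound by INK4 proteins, by 1.74 on the log2 scale (adjusted p from 0.00813 to 0.0388, limma). The list's median was -1.09 in LSC, beside -0.03 over all genes tested. The counts of this list and of those that follow stand beside shares over all genes tested of 3.37% higher and 3.18% lower in T lymphoma and 4.05% higher and 6.21% lower in LSC.

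The transcription factors downstream showed fewer calls. Of 10 E2F and DP factors, E2f2, an activating E2F, fell by 4.04 in T lymphoma (SE 0.26, adjusted p = 2.86e-05, limma), from 12.64, 12.59 and 12.83 in DP thymocytes to 9.17, 8.33, 8.45 and 8.65. In LSC, Tfdp2, a dimer partner of E2F, fell by 1.48 (SE 0.36, adjusted p = 0.0334, limma), and the list's median was -1.47. None of 6 genes listed with DREAM, the complex that p107 and p130 form with E2F, passed in either comparison. They were the core genes Lin9, Lin37, Lin52, Lin54 and Rbbp4, and Mybl2, which is outside that complex. Nor did any of 7 measured genes of p27 turnover pass. Of 10 Polycomb genes known to silence the Cdkn2a locus, Cbx7 fell by 1.26 in T lymphoma (SE 0.26, adjusted p = 0.0211, limma), and none of the 10 passed in LSC.

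Of 13 genes of the p53 pathway, to which p21 and ARF belong, Gadd45a, a DNA damage response gene, fell by 2.19 in T lymphoma (SE 0.22, adjusted p = 0.000532, limma) and none rose. Gadd45a was at 7.76, 8.03 and 7.79 in DP thymocytes. It was at 5.68, 5.76, 5.93 and 5.30 in the lymphomas, all below the filter level. In LSC, Gadd45a rose by 2.13 ± 0.29, Trp53inp1 by 1.96 ± 0.37 and Ccng1 by 1.22 ± 0.30 (adjusted p = 0.00270, 0.0121 and 0.0330, limma), and none fell. For Gadd45a the difference between these changes was 4.33 ± 0.37 (adjusted p = 0.000427, limma), and it rests in part on those lymphoma values. Gadd45a and Cdkn1a thus had opposite signs in T lymphoma and the same sign in LSC. Of 13 TGF-beta and FOXO genes, Myc rose by 2.26 ± 0.26 and Foxo4 fell by 0.97 in T lymphoma (adjusted p = 0.00110 and 0.00709, limma). In LSC, Foxo1, a factor known to act on the p27 gene, rose by 2.56 ± 0.56 (adjusted p = 0.0220, limma), and none fell.

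Cdkn1c belongs to an imprinted cluster, and of 10 imprinted growth genes Gnas fell by 1.07 in T lymphoma (adjusted p = 0.0370, limma). In LSC, Ndn fell by 3.06 and Phlda2, a near neighbour of Cdkn1c, by 1.35 (adjusted p = 0.00381 and 0.00509, limma). Phlda2 was at 6.15 and 6.64 in HSC and 4.90 and 5.20 in LSC, near or below the filter level. Among 7 neighbours of the members, Mtap and Samhd1, which is next to Rbl1, rose in T lymphoma, and none passed in LSC. Samhd1 rose by 4.54 ± 0.82 (adjusted p = 0.0101, limma). It was at 5.98, 6.69 and 6.69 in DP thymocytes, 13.06, 10.35 and 11.58 in the unsorted lymphomas and 8.95 in the sorted one. The macrophage marker sum was also lower in the sorted lymphoma, and its part in the Samhd1 level was not tested. None of these pathway and neighbour genes passed with the cell line against T lymphoma or with the sorted against the unsorted lymphomas.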

How the data were processed

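Expression was measured on 12 arrays, 1 per sample. Each deposited value is a linear intensity per probe set, made by the authors with RMA according to the submitters' processing notes, which give no version. Before every test log2 of the deposited intensities was taken. The T cell and stem cell arrays had different medians, so contrasts were made within a side. Of 45101 probe sets, 64 were controls, 34945 had 1 gene symbol in the platform annotation and 932 several; those with several or none were left out. A gene was tested where its probe set exceeded log2 6.33, the median of all values but controls (intensity 80.2), on at least 2 arrays.

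Genes were tested with limma 3.58.1 in R 4.3.3 (lmFit, eBayes, two-sided, a mean per group over 12 arrays). P-values were adjusted by Benjamini-Hochberg over 12797 genes, with calls at adjusted p under 0.05. The fit was run on simulated data in which all groups had the same spread. That run cannot check the use of a shared spread where groups differ in spread, as they did here. The spread of the other groups stood in for that of a single array, and the sorted lymphoma was a group of its own only when set against the unsorted ones. The SE is limma's moderated standard error. In the main fit a p-value sets a difference against a spread pooled over all groups, not that of the groups compared. The number of arrays limits the precision. Alternatives changed the samples fitted, array weights, variance trend, normalization, centring, filter, a pseudocount of 32, probe set choice, a replicate block and single arrays left out. Pathway and marker lists were counted, not tested. Up to 3 called genes with the largest difference were named per list and contrast. For the G1 cyclins and kinases in LSC all 4 called genes were named. The members and lists were chosen with earlier results of these data known. Promoters came from RefSeq tables of GRCm38.p6; protein sequences were not used here.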

Additional observations from a re-analysis of the deposited data

Results flagged for a closer look

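Rb1 was singled out because 1 of the 4 T lymphoma arrays stood far from the others on both of its probe sets, and that array was the sorted lymphoma each time. On 1417850_at the sorted lymphoma was at log2 11.60 with its nearest neighbour at 11.03, a gap that took up 0.891 of the group's whole range. On 1444400_at it was at 7.32 with its nearest neighbour at 6.06, and the gap took up 0.898 of the range. The unsorted lymphomas were below the filter level on 1444400_at. By chance, Dixon's 95% limit is passed in about 5% of groups, and 17 probe sets were examined. The sorted lymphoma also had a stroma marker sum of 918, against 18984 to 42799 in the unsorted ones; the part of this in the Rb1 level was not tested.

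Cdkn1b and Rb1 were singled out because their changes differed between the disease comparisons. The LSC minus HSC change exceeded the T lymphoma minus DP change by 3.04 ± 0.44 for Cdkn1b (adjusted p = 0.00461, limma) and by 2.14 ± 0.39 for Rb1 (adjusted p = 0.0130, limma). The comparisons share no arrays. The other probe sets of these genes gave 0.77 ± 1.12 and 1.35 ± 0.55, and neither passed (adjusted p = 0.719 and 0.167, limma). Both were below the filter level in HSC, LSC and the unsorted lymphomas.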

How the results depend on the processing

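Of 820 values of members under alternatives, 764 kept their direction and their side of the threshold, 22 lost a call, 18 gained one and 16 changed sign, of which 0 were called. Cdkn1a and Cdkn2b in T lymphoma passed in 19 of 19 alternatives each, and Rb1 in 10 of 19. In LSC, Cdkn2b passed in 14 of 15, Cdkn1a, Cdkn1b and Cdkn1c in 13 of 15 each, and Rb1 in 9 of 15. Centring arrays on their medians moved the median of all genes by 0.33 in LSC minus HSC and by 0.42 in the difference of the comparisons.

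Only the arrays compared gave 1826 genes and 5 members in T lymphoma (Cdkn1b and Rbl2 added), 0 genes and 0 members in LSC, 4 genes for the cell line and 0 genes for the sorted lymphoma (1281 at an unadjusted p under 0.05, limma). Array weights gave 4681, 103, 311, 1834 and 948 genes in T lymphoma, LSC, their difference, the cell line and the sorted lymphoma, with 8 members, 1 member (Cdkn2b) and, in the sorted lymphoma, 1 member (Cdkn2a). Testing every probe set gave 1436, 2123 and 1795 calls in the first 3 of these comparisons, which is a count over more features. No filter gave 53 genes for the sorted lymphoma, and the sorted lymphoma alone gave 303 in T lymphoma. Leaving out 1 array gave 383 to 1572 genes in T lymphoma (383 to 399 without a DP array, 1572 without the sorted lymphoma) and 774 to 2716 in LSC (774 without HSC 2, 2321 without LSC 1, 2716 without LSC 2). It gave 446 to 2444 in the difference, 68 to 290 for the cell line and 40 to 248 for the sorted lymphoma. Fits on fewer arrays have fewer degrees of freedom and another shared spread, and they gave more calls in some cases and fewer in others. The cause of these changes was not tested for any setting.

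Signs that changed were of values not called. Rbl1 in T lymphoma was 0.00169 with the sorted lymphoma alone. In LSC, Rbl2 was 0.11 after centring and -0.92 to 0.49 with arrays left out, and Cdkn2d was -0.36 to 0.73. Cdkn2a in the difference was -0.0680 with a replicate block and -2.50 to 4.39 with arrays left out. For the cell line, Cdkn2c was -0.0303 after quantile normalization and -0.15 to 0.27 with arrays left out, and Cdkn2a was -0.0578 to 1.65. In the sorted lymphoma, Cdkn1a and Cdkn2c were -0.0768 and -0.0590 after quantile normalization, and -0.18 to 0.44 and -0.18 to 0.45 with arrays left out.

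Same-numbered arrays of T lymphoma and DP thymocytes did not deviate together (r over genes 0.0333, -0.0674 and -0.00112, beside -0.0585 to 0.0972 for the other pairs). For LSC and HSC, r was 0.0983 for same-numbered pairs and -0.0983 for the others. With 2 arrays per group the size of r is forced to be the same in all pairs, so it cannot decide on pairing there. The numbers were not taken to pair samples. With the replicate block, 822 genes were called in LSC, 4 members among them. In T lymphoma 3 members were called (Cdkn1a, Cdkn2b and Cdkn1b, the last at an adjusted p of 0.0445, limma). Rb1 was called in neither (adjusted p = 0.0678 in T lymphoma and 0.0965 in LSC, limma). The sorted lymphoma was the only T cell array of its number. The block therefore gave the same T lymphoma differences as leaving that array out, such as -1.20 for Cdkn1b. Not run were the block for the cell line and the sorted lymphoma, leaving out those lone arrays, and a probe set choice by side for the difference of the comparisons.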
